A study of Mus musculus with 50 samples.

Results

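The mRNAs described here encode RNA polymerase II, the general transcription factors that load it at promoters, and the factors that release it into elongation. The set was given by name as 37 genes: 12 polymerase subunits, the associated protein Gdown1 (Polr2m), subunits of TFIIA, TFIIB, TFIIE, TFIIF and TFIIH, and subunits of the elongation factors P-TEFb, NELF and DSIF. TBP and its associated factors are not in it. All 37 genes were among the 16614 genes of the count table, and all 37 were among the 15029 genes that passed the filter on low counts.

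The material was single mouse oocytes at the germinal vesicle stage, in which meiosis is arrested at prophase. The 24 knockout oocytes, labelled cKO-Zfp36l2, came from 4 mice that gave 1, 7, 8 and 8 oocytes. The 26 floxed oocytes, labelled F/F, came from 4 mice that gave 5, 7, 7 and 7 oocytes. All mice were 5-week-old females given 10 IU of PMSG, a gonadotrophin that stimulates follicle growth, and all oocytes were taken 46 hours later into medium with 5 µM milrinone, which keeps them arrested. Cumulus cells and the zona pellucida had been removed. The sources used here name neither the Cre driver nor the strain. The mouse was taken as the replicate, so counts were summed over the oocytes of each mouse, and levels are given as CPM, the count of a gene per 1000000 counts of that sum.

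RNA polymerase II makes all mRNA precursors. TFIIB and TFIIA help to place it on the promoter with TBP, TFIIF arrives with it, TFIIE recruits TFIIH, and the helicases and the kinase of TFIIH open the DNA and phosphorylate the tail of the largest subunit. NELF and DSIF then hold the polymerase in a pause near the promoter until P-TEFb phosphorylates them and the tail. Fully grown oocytes normally have largely stopped transcription, so their mRNAs are mostly stored. Removal of stored mRNA is then a main means by which levels change. Transcription was not measured in these oocytes of either genotype, so synthesis and removal of mRNA cannot be told apart here. ZFP36L2 is a zinc finger protein that recognises AU-rich elements downstream of the coding sequence and recruits the enzymes that shorten the poly(A) tail.

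The core of such an element, UAUUUAU, was searched as TATTTAT on the transcript strand of the annotated 3′ untranslated regions. It was present in 9 of the 36 members with an untranslated region of at least 20 bases, which is 25.0%, against 27.7% of 13802 tested genes. The untranslated regions had a median length of 500 bases in the members and 1002 bases in all of these genes. The 2 members with the most matches are shown because their mRNAs differed in outcome. Gtf2a1, with 3 matches, was higher in knockout oocytes, and Ccnt2, with 4 matches, was not called. Capitals mark the match, and the flanks are from the GENCODE transcripts of mm10. A match is a description of these letters and not a bound site.
Gtf2a1, chr12:91557004-91557032, minus strand, exonic, 3′ untranslated region: ataggaggggaTATTTATatgaggcgttt
Gtf2a1, chr12:91556086-91556114, minus strand, exonic, 3′ untranslated region: gggcgtgaataTATTTATtatgtttgtaa
Gtf2a1, chr12:91555262-91555287, minus strand, at the end of the 3′ untranslated region: taaagatatttTATTTATtgccagca
Ccnt2, chr1:127803816-127803844, plus strand, exonic, 3′ untranslated region: caagcttctctTATTTATgatttgaatat
Ccnt2, chr1:127803892-127803920, plus strand, exonic, 3′ untranslated region: tttcttttgtgTATTTATacttgtatgta
Ccnt2, chr1:127804745-127804773, plus strand, exonic, 3′ untranslated region: cattgtacctgTATTTATagcttatggtc
Ccnt2, chr1:127805891-127805919, plus strand, exonic, 3′ untranslated region: tttacaatgacTATTTATtaaaaggcagt
The other members with a match were Gtf2e2 with 2 and Polr2c, Polr2g, Gtf2a2, Gtf2e1, Gtf2f2 and Gtf2h5 with 1 each. The median log2 fold change, knockout over floxed, was -0.10 in the 9 members with a match and -0.15 in the 27 without. Of the 3 members called below, Gtf2a1 holds matches, and Nelfb and Supt4a have none in this window.

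Total counts were 4332108 to 6233840 per knockout oocyte (median 5211210) and 1746007 to 6120317 per floxed oocyte (median 4761241), so knockout libraries were deeper. Zfp36l2 itself averaged 2.00 ± 0.81 CPM in knockout mice and 3.27 ± 0.93 CPM in floxed mice (SD, n = 4 each), a log2 fold change of -0.78 with a standard error of 0.43. That difference was not significant (adjusted p = 0.208, edgeR quasi-likelihood test), and the sources used here do not say whether the counted exons include the deleted part. Oocyte markers, 15 of 16 in the table, summed to 5304 to 6689 CPM in single knockout oocytes and 5215 to 9852 CPM in single floxed oocytes. Of these 15 oocyte markers, 2 were called higher and 1 lower in knockout mice, against 14.4% and 13.2% of all tested genes. Markers of granulosa and cumulus cells, 13 of 16 in the table, summed to 144 to 359 CPM in knockout oocytes and 99.7 to 278 CPM in floxed oocytes. None of these markers was called, and their part in the results was not tested. The granulosa genes Foxl2 and Wt1 averaged 0.59 and 0.72 CPM in knockout mice, against 0.57 and 0.23 CPM in floxed mice. Other markers of that list were higher in level. Cyp19a1 averaged 78.8 CPM in knockout mice and 82.8 CPM in floxed mice, Nr5a2 44.1 and 49.9 CPM, and Kitl 40.0 and 21.3 CPM. Markers of theca, blood and endothelium, 5 of 10 in the table, summed to 14.2 to 69.0 CPM in knockout oocytes and 86.4 to 228 CPM in floxed oocytes. Most of that was Pecam1, which was lower in knockout mice (27.0 against 150.4 CPM), the theca gene Cyp17a1 was at 0.33 and 0.11 CPM in knockout and floxed mice, and their part was not tested. Mouse 1 of both genotypes lay at 1 end of the second principal component, which held 11.8% of the variance, though not clear of floxed mouse 2. The oocyte of knockout mouse 1 lay at 43.7 and those of floxed mouse 1 at 33.2 to 65.4 (median 35.2), while those of floxed mouse 2 reached 39.9 and all others lay between -34.8 and 22.9. Member calls are given below with all mice and without mouse 1 of both genotypes.

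For most of the machinery the measured difference between genotypes was small. Of the 37 mRNAs, 2 were higher in knockout oocytes (Gtf2a1 and Nelfb), 1 was lower (Supt4a), and 34 did not pass an adjusted p of 0.05 in edgeR's quasi-likelihood test, which does not show that those did not differ. These 3 are 8.11% of the members, against 27.6% of the 15029 genes tested, of which 14.4% were higher and 13.2% lower. Among the 9622 genes within the members' range of mean CPM, 30.7% were called. At an unadjusted p under 0.05 the counts were 13 of 37 members and 40.0% of all genes. The 95% interval of the fold change lay within 2-fold in either direction for 32 of 37 members and 44.7% of all genes, and within 1.5-fold for 24 of 37 members and 23.3% of all genes. The median size of the log2 fold change was 0.24 in members and 0.44 in all genes, with median standard errors of 0.12 and 0.26. The contrasts in interval, size and standard error were smaller among abundant genes, which most members are, while that in calls was not. At 50 CPM or more, the interval lay within 2-fold for 29 of 29 members and 4954 of 5782 genes, and within 1.5-fold for 23 of 29 members and 3099 of 5782 genes. There the median size was 0.20 in members and 0.23 in all genes, the median standard errors were 0.11 and 0.13, and 2 of 29 members and 27.0% of genes were called.

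The sign of the difference went with the level, in a split chosen after the values were seen. Of the 29 members with a mean of 50 CPM or more, 25 had a log2 fold change below 0, and of the 8 members under 50 CPM, 7 had one above 0. The same split over all genes gave 3329 of 5782 genes below 0 at 50 CPM or more, and 5002 of 9247 genes above 0 under 50 CPM. The mice of the 2 genotypes did not overlap for 6 of 37 members, with knockout mice above for Polr2a and Nelfb and below for Polr2e, Polr2k, Cdk7 and Supt4a, against 31.0% of all genes, 16.0% above and 15.0% below. Without mouse 1 of both genotypes 12 members were called, 4 higher and 8 lower, as were 43.9% of 15332 genes, 20.8% higher and 23.1% lower. The 4 higher were Polr2m, Gtf2a1, Nelfb and Cdk9. The 8 lower were Polr2j, Polr2k, Gtf2h1, Gtf2h2, Gtf2h5, Cdk7, Mnat1 and Supt4a.

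**Figure D1:**
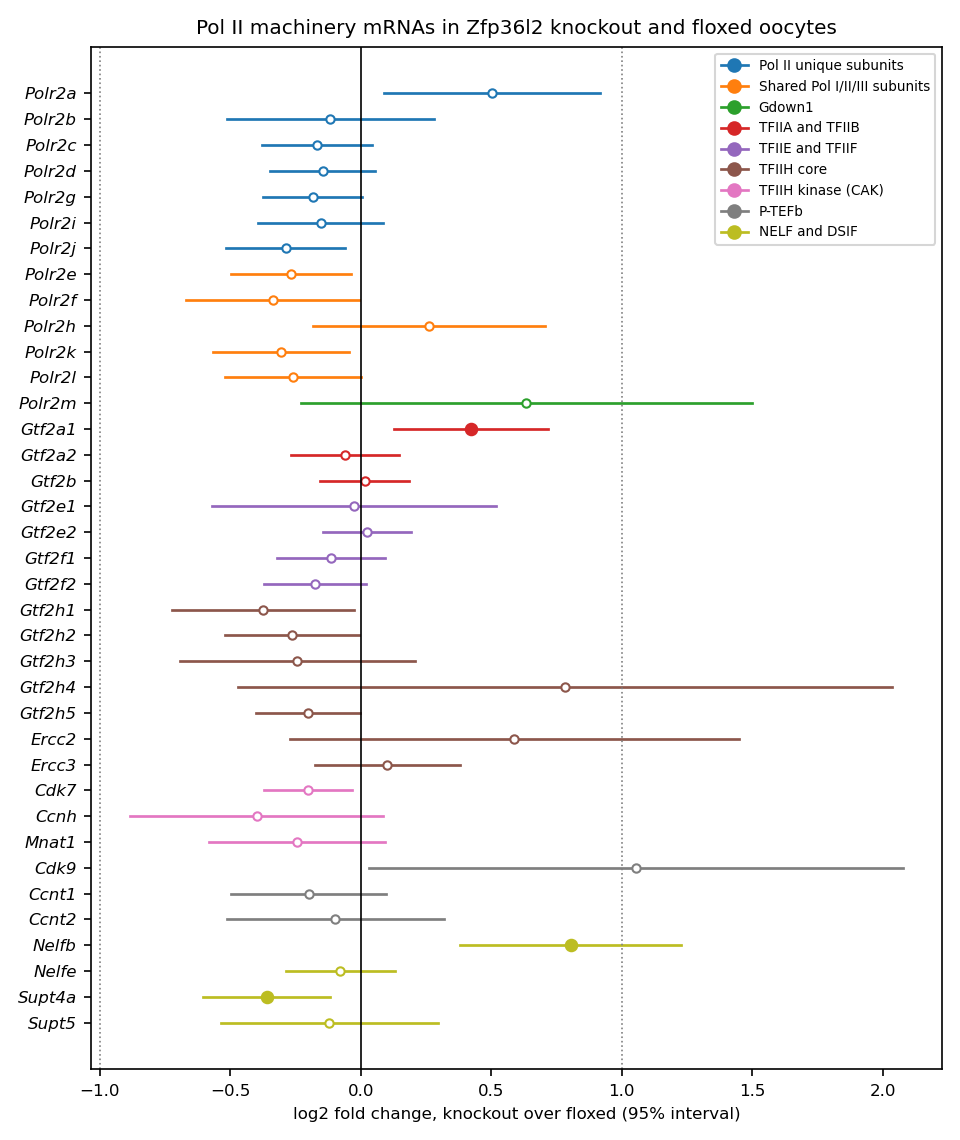
Log2 fold change of each of the 37 mRNAs, knockout over floxed, from edgeR on mouse sums (4 knockout and 4 floxed mice). Lines are 95% intervals, colours give the role, filled points mark the 3 genes with an adjusted p under 0.05 (Gtf2a1, Nelfb, Supt4a), dotted lines stand at 2-fold, and most points lie between -0.5 and 0.

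The 7 subunits found only in polymerase II summed to 1078 ± 21.6 CPM in knockout mice and 1156 ± 64.6 CPM in floxed mice (SD, n = 4 each). None of the 7 was called. Polr2a (chr11:69733997-69758637, minus strand), which encodes the catalytic largest subunit with the repeated tail, had 62.6, 45.7, 66.0 and 44.6 CPM in knockout mice, against 33.8, 32.7, 40.5 and 43.1 CPM in floxed mice. All knockout mice lay above all floxed mice, by as little as 44.6 against 43.1 CPM. Its log2 fold change was 0.50 with a standard error of 0.18 and did not pass the adjustment (adjusted p = 0.071, edgeR). The other 6 unique subunits had log2 fold changes below 0.

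Polr2b encodes the second largest subunit, which completes the active site, and was the most abundant subunit mRNA by CPM. It had 193, 263, 285 and 311 CPM in knockout mice, against 203, 278, 309 and 318 CPM in floxed mice. The groups overlapped almost entirely, with mouse 1 lowest in both, and the log2 fold change was -0.12 (95% interval -0.51 to 0.28).

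Polr2d and Polr2g encode the stalk that projects from the polymerase core. Polr2d had 240.3, 237, 220.3 and 219 CPM in knockout mice, against 256, 274, 215 and 242 CPM in floxed mice. Polr2g had 174, 175, 168 and 168 CPM in knockout mice, against 191, 209.8, 169 and 188 CPM in floxed mice. For both, floxed mice 1, 2 and 4 lay above every knockout mouse, while floxed mouse 3 lay below them for Polr2d and within their range for Polr2g. The log2 fold changes of -0.15 and -0.18 did not pass the test. Of the rest, Polr2c and Polr2j encode the partners of the assembly heterodimer and Polr2i a small subunit that acts in transcriptional fidelity, and Polr2j had the lowest value of the role (-0.29, adjusted p = 0.062, edgeR). Exons of Polr2i, Polr2f, Polr2j and Polr2c are shared over 39.7%, 27.7%, 27.2% and 26.3% of their length with a gene on the opposite strand, and those of Ercc2 over 20.8% and 18.1% with 2 genes. Supt5 shares 12.3% and Polr2h 8.6%. The library does not mark strand, so reads of the partners cannot be told apart.

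The 5 subunits shared with polymerases I and III summed to 302 ± 13.8 CPM in knockout mice and 350.5 ± 28.1 CPM in floxed mice. None was called. Polr2e had 79.5 to 125 CPM in knockout oocytes (median 108) and 92.0 to 188 CPM in floxed oocytes (median 120.3), and its mouse sums did not overlap. Polr2k, the small zinc-binding subunit, averaged 47.3 ± 1.55 CPM in knockout mice and 56.9 ± 3.44 CPM in floxed mice, also without overlap, with a log2 fold change of -0.31 (adjusted p = 0.078, edgeR). Polr2f had the lowest log2 fold change of the role at -0.34 and Polr2h the highest at 0.26. Polr2l lay at -0.26. Reads of several small subunits are uncertain, since 30.6% of the 50-base words of Polr2c, 20.2% of Polr2k, 17.7% of Polr2l and 14.5% of Polr2h also occur in another annotated transcript, mostly a processed pseudogene.

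Gdown1, encoded by Polr2m, binds the polymerase and blocks its association with TFIIF. Its mRNA had 34.2, 21.4, 24.1 and 21.8 CPM in knockout mice, against 28.9, 8.98, 8.76 and 17.1 CPM in floxed mice. Mouse 1 was the highest in each genotype, and floxed mouse 1 lay above 3 of the 4 knockout mice. The log2 fold change of 0.63 did not pass the test with all mice, but without mouse 1 of both genotypes it was 0.86 (adjusted p = 0.030, edgeR).

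Among the factors that seat the polymerase at the promoter, Gtf2a1 was higher in knockout oocytes. Gtf2a1 (chr12:91555262-91590487, minus strand) encodes the precursor that is cleaved into the large and middle subunits of TFIIA. It had 319, 494, 469 and 473 CPM in knockout mice, against 289, 321, 334 and 331 CPM in floxed mice. Knockout mouse 1, with its single oocyte, lay within the floxed range and the other 3 lay above it. Across single cells the level was 319 to 557 CPM in knockout oocytes (median 467) and 188 to 371 CPM in floxed oocytes (median 336), and 23 of 24 knockout oocytes exceeded every floxed oocyte. The fold change was 1.34 (log2 0.42, standard error 0.13, adjusted p = 0.040, edgeR). Leaving out any 1 of the other 7 mice gave log2 fold changes of 0.31 to 0.45 and took the adjusted p to 0.070 to 0.158.

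The small TFIIA subunit Gtf2a2 averaged 92.6 ± 3.87 CPM in knockout mice and 94.1 ± 5.14 CPM in floxed mice. Gtf2b, whose protein bridges the promoter complex and the polymerase, had 253, 253, 241 and 236 CPM in knockout mice, against 238, 248, 215 and 246 CPM in floxed mice. The groups overlapped, and its log2 fold change of 0.01 had a 95% interval of -0.16 to 0.19.

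TFIIE and TFIIF, 4 genes, summed to 458 ± 14.7 CPM in knockout mice and 473 ± 23.9 CPM in floxed mice, and none was called. Gtf2e2, the small TFIIE subunit, had the highest log2 fold change at 0.02, and Gtf2f2, the small TFIIF subunit, the lowest at -0.18. All 4 had 95% intervals within 1.5-fold. Gtf2e1, the large TFIIE subunit, was the rarest of the 4 with 22.3 ± 4.19 CPM in knockout mice and 22.0 ± 5.90 CPM in floxed mice. Gtf2f1, the large TFIIF subunit, averaged 167 ± 10.7 CPM in knockout mice and 176 ± 16.7 CPM in floxed mice.

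The 7 genes of the TFIIH core summed to 542 ± 27.7 CPM in knockout mice and 596 ± 13.6 CPM in floxed mice, and none was called. Their log2 fold changes ran from -0.38 for Gtf2h1 to 0.78 for Gtf2h4. Gtf2h1 had 27.9 to 129 CPM in knockout oocytes (median 89.5) and 86.2 to 159 CPM in floxed oocytes (median 114), and 12 of 24 knockout oocytes lay below every floxed oocyte. Its adjusted p was 0.103 with all mice and 0.014 without mouse 1 of both genotypes (edgeR). Gtf2h2, Gtf2h3 and Gtf2h5 lay between -0.26 and -0.20. The 2 helicases differ in level: Ercc3, which opens the promoter, averaged 104 ± 12.6 CPM in knockout mice and 94.0 ± 9.95 CPM in floxed mice. Ercc2, whose helicase acts in nucleotide excision repair, had 8.12 to 17.1 CPM in knockout mice and 4.37 to 11.2 CPM in floxed mice. Gtf2h4, which anchors Ercc3, was the only member with oocytes at 0 counts, 2 floxed ones, and averaged 12.6 ± 3.78 CPM in knockout mice and 7.18 ± 5.95 CPM in floxed mice.

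The kinase module of TFIIH had lower summed levels in knockout mice in every animal, 281 to 315 CPM against 327 to 355 CPM, although none of its 3 genes was called. Cdk7, the kinase, had 171, 179.6, 192 and 187 CPM in knockout mice, against 196, 204, 201 and 216 CPM in floxed mice. The groups did not overlap, and 13 of 24 knockout oocytes lay below every floxed oocyte. Its log2 fold change was -0.20 with a standard error of 0.08 (adjusted p = 0.072, edgeR). Ccnh, its cyclin, had the lowest log2 fold change of all members at -0.40 with a 95% interval of -0.88 to 0.09. Mnat1, the assembly factor, lay at -0.25. Without mouse 1 of both genotypes Cdk7 (-0.24, adjusted p = 0.017, edgeR) and Mnat1 (-0.42, adjusted p = 0.011, edgeR) passed the test.

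P-TEFb combines the kinase Cdk9 with cyclin T1 or T2, and its genes summed to 222 ± 20.9 CPM in knockout mice and 219.8 ± 13.3 CPM in floxed mice. Cdk9 (chr2:32705784-32713076, minus strand) had 45.5, 27.8, 25.4 and 19.5 CPM in knockout mice, against 29.5, 7.76, 9.05 and 9.49 CPM in floxed mice. Floxed mouse 1 lay above 3 knockout mice, while the other 3 floxed mice lay below all of them. Knockout oocytes had 12.2 to 45.5 CPM (median 28.0) and floxed oocytes 1.05 to 36.7 CPM (median 8.51), and all 24 knockout oocytes lay above the floxed median. The log2 fold change was 1.06, the largest of the members, with a standard error of 0.46 and an adjusted p of 0.115 (edgeR). Without mouse 1 of both genotypes it was 1.38 (adjusted p = 8.07e-04, edgeR). The log2 fold changes of its cyclins, -0.20 for Ccnt1 and -0.10 for Ccnt2, did not pass the test.

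Of the 4 pausing factors in the set, 1 was higher and 1 lower. The NELF subunits Nelfa and Nelfcd, outside the set, were not called. They averaged 148 and 65.9 CPM in knockout mice, against 134 and 67.9 CPM in floxed mice. Nelfb (chr2:25199712-25211489, minus strand), a subunit of the NELF complex, had 26.5, 21.2, 26.6 and 24.1 CPM in knockout mice, against 15.3, 15.0, 11.2 and 13.4 CPM in floxed mice. Every knockout mouse lay above every floxed mouse. Single knockout oocytes had 10.0 to 41.8 CPM (median 22.9) and floxed oocytes 5.82 to 34.7 CPM (median 12.6), so single cells overlapped. The fold change was 1.75 (log2 0.80, standard error 0.19, adjusted p = 0.013, edgeR), and leaving out knockout mouse 3 gave 0.72 with an adjusted p of 0.057.

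Supt4a (chr11:87737552-87743623, plus strand), the small subunit of DSIF, had 51.0, 54.9, 60.4 and 58.0 CPM in knockout mice, against 68.2, 70.4, 68.6 and 73.5 CPM in floxed mice. Every knockout mouse lay below every floxed mouse, and all 24 knockout oocytes lay below the floxed median of 71.1 CPM. The level was 1.28-fold lower (log2 -0.36, standard error 0.11, adjusted p = 0.035, edgeR), and the adjusted p was 0.063 to 0.106 without knockout mouse 2 or floxed mouse 2, 3 or 4. Supt4a shares 27.5% of its 50-base words with the processed pseudogene Supt4b, so its reads may be split. Its partner Supt5, the large DSIF subunit, averaged 139.8 ± 35.4 CPM in knockout mice and 148 ± 19.7 CPM in floxed mice. Nelfe, the RNA-binding NELF subunit, averaged 105 ± 7.90 CPM in knockout mice and 108 ± 8.09 CPM in floxed mice.

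**Figure D2:**
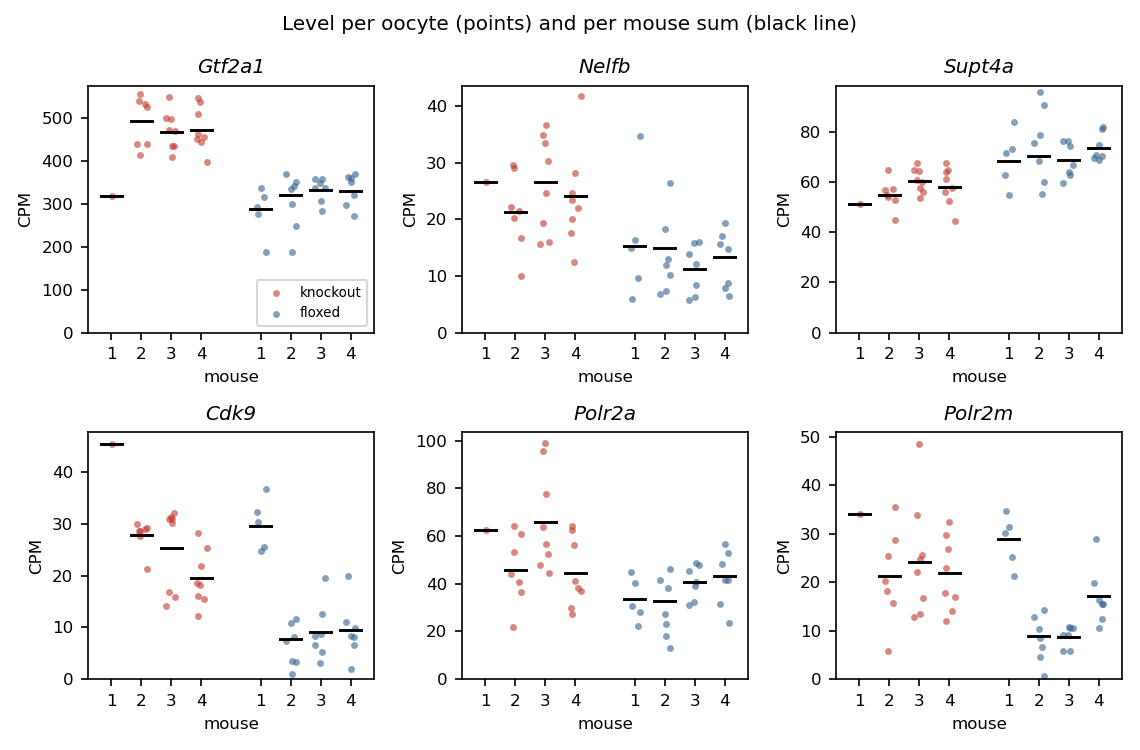
Level in CPM (linear axis from 0) of 6 mRNAs in each oocyte (points) and each mouse sum (black lines), knockout mice on the left and floxed mice on the right of each panel. Gtf2a1 and Nelfb are higher and Supt4a lower in knockout oocytes, and Cdk9 and Polr2m are highest in mouse 1 of both genotypes.

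Per kilobase of transcript, the order of the mRNAs was much alike in the genotypes. Polr2d was the highest with 226 CPM per kilobase in knockout mice and 243 in floxed mice, followed by Polr2j with 191 and 227 and Polr2g with 192 and 213. Gtf2b had 169 CPM per kilobase in knockout mice and 163 in floxed mice. The catalytic subunit mRNA Polr2a was near the foot of the order with 8.12 CPM per kilobase in knockout mice and 5.57 in floxed mice. Others at the foot were Nelfb with 9.34 and 5.21, Gtf2h4 with 7.48 and 4.28, Gtf2e1 with 7.23 and 7.14, and Ercc2, the lowest in both genotypes, with 3.12 and 2.01. In floxed mice, 33 of 36 neighbours in the order overlapped, and the steps between Polr2g and Gtf2b, Gtf2b and Polr2c, and Gtf2e2 and Nelfe did not. The 12 subunit mRNAs spanned 8.12 to 226 CPM per kilobase in knockout mice and 5.57 to 243 in floxed mice. The kit amplifies whole cDNA from the poly(A) end, and how evenly it covers long transcripts was not tested. Since the CPM of some of these mRNAs varied with the total count, the order holds for these libraries only.

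**Figure D3:**
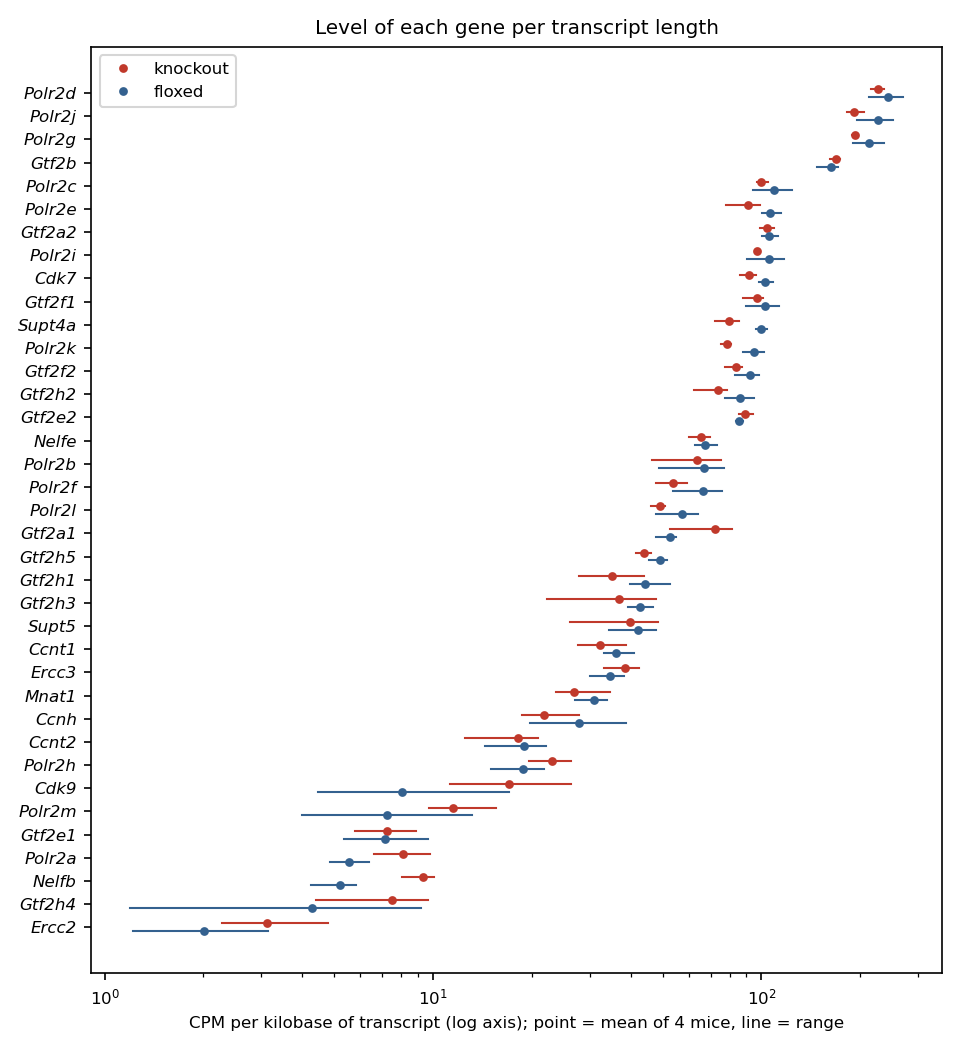
Level of each of the 37 mRNAs in CPM per kilobase of transcript (log axis), sorted by the floxed mean, with knockout above floxed in each row. Points are means and lines ranges over 4 mice, and Polr2d leads while Polr2a, Nelfb, Gtf2h4 and Ercc2 are at the foot.

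Spread between oocytes of a mouse went with the level. The SD of log2(CPM + 1) had a median of 0.18 over members in knockout mice and 0.24 in floxed mice, against 0.47 and 0.44 over all genes. At 50 CPM or more it was 0.16 and 0.22 in members, against 0.21 and 0.24 in all genes, and under 50 CPM it was 0.48 and 0.65 in members, against 0.68 and 0.61 in all genes. Variable members were mostly the rare ones: Gtf2h4 had an SD of 0.99 in knockout mice and 1.07 in floxed mice, and Ercc2 had 0.52 and 0.77. Cdk9 had an SD of 0.38 in knockout mice and 0.79 in floxed mice, while Ccnh had 0.68 and 0.42 and Gtf2h1 0.46 and 0.21. The SD was greater in floxed mice for 27 of 37 members and 46.9% of all genes. At 50 CPM or more it was greater in floxed mice for 21 of 29 members and 57.4% of genes. Knockout mouse 1, with 1 oocyte, gave no SD. Total counts covered a wider range in floxed oocytes, 1746007 to 6120317, than in knockout oocytes, 4332108 to 6233840. The part of depth in this difference was not tested.

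**Figure D4:**
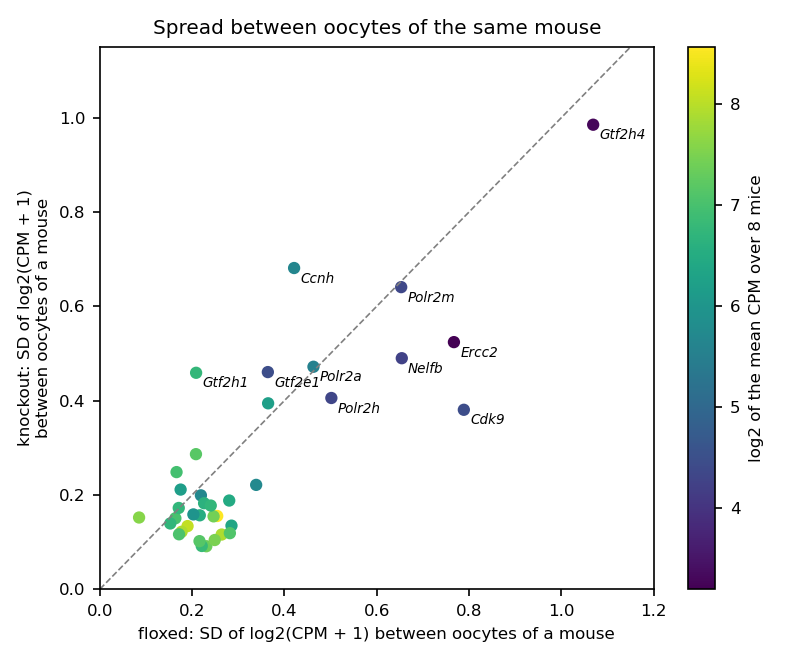
SD of log2(CPM + 1) between oocytes of the same mouse for each of the 37 mRNAs, knockout on the vertical and floxed on the horizontal axis, coloured by the log2 of the mean CPM. Most points lie low and to the floxed side of the diagonal, and Ccnh and Gtf2h1 lie to the knockout side. Knockout mouse 1, with 1 oocyte, is not included, and total counts covered a wider range in floxed oocytes.

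The CPM of several short subunit mRNAs, among them Polr2d and Polr2j, fell as an oocyte's total count grew. For Polr2d the deposited counts were 1030 to 1305 in knockout oocytes and 778 to 1234 in floxed oocytes, a narrow range next to that of the totals. The sources used here do not say whether duplicate reads were removed before counting, so the CPM and the per-kilobase level of such mRNAs are uncertain. The slope of log2 count on log2 total is 1 where counts follow depth. It was 0.36 across knockout oocytes and 0.35 across floxed oocytes for Polr2d, 0.40 and 0.32 for Polr2j, and 0.46 and 0.31 for Polr2l. Further members had slopes under 1 in both genotypes, among them Polr2g (0.52 in knockout and 0.42 in floxed oocytes) and Polr2c (0.60 and 0.43). Others were Polr2i (0.61 and 0.36), Gtf2b (0.43 and 0.60), Polr2k (0.76 and 0.58) and Gtf2h5 (0.69 and 0.69). Some members did not share this in both genotypes. The slope was 1.03 in knockout and 0.24 in floxed oocytes for Polr2f, and 1.55 and 0.71 for Polr2e. It was 0.53 and 1.10 for the short Gtf2a2, and 1.07 and 1.74 for Polr2a. Knockout totals covered a narrower range. The median floxed slope over the members was 1.01. The 2 floxed oocytes under 2500000 counts, both of mouse 2, had 409 and 461 CPM of Polr2d, above the highest other floxed oocyte at 334 CPM. The same held for Polr2g, Polr2j, Polr2l and Gtf2b.

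Members with a floxed slope under 1 had log2 fold changes below 0 in 15 of 18 cases (median -0.18), and those with a slope of 1 or more in 11 of 19 cases (median -0.06); the slope comes from the same floxed oocytes as the fold change. With the mean depth per oocyte as a covariate these were 15 of 18 (median -0.11) and 12 of 19 (median -0.14). Without the 2 floxed oocytes under 2500000 counts they were 15 of 18 (median -0.16) and 11 of 19 (median -0.06), with the same 3 members called and a median of -0.12 over all members. With only oocytes of at least 4300000 counts, 24 knockout and 16 floxed, the mean totals were 5231862 and 5138808. The members' median log2 fold change was then -0.03, against -0.15 with all oocytes, and 22 of 37 were below 0, against 26 of 37; these were 11 of 18 and 11 of 19 by slope. Over all genes 49.0% were below 0 in that fit and 50.4% with all oocytes. Gtf2a1 stayed higher (log2 0.41, adjusted p = 0.046, edgeR), Nelfb had 0.69 (adjusted p = 0.051) and Supt4a -0.25 (adjusted p = 0.189), with 23.9% of 14934 genes called. Here 2 floxed mice kept only 1 and 2 oocytes.

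**Figure D5:**
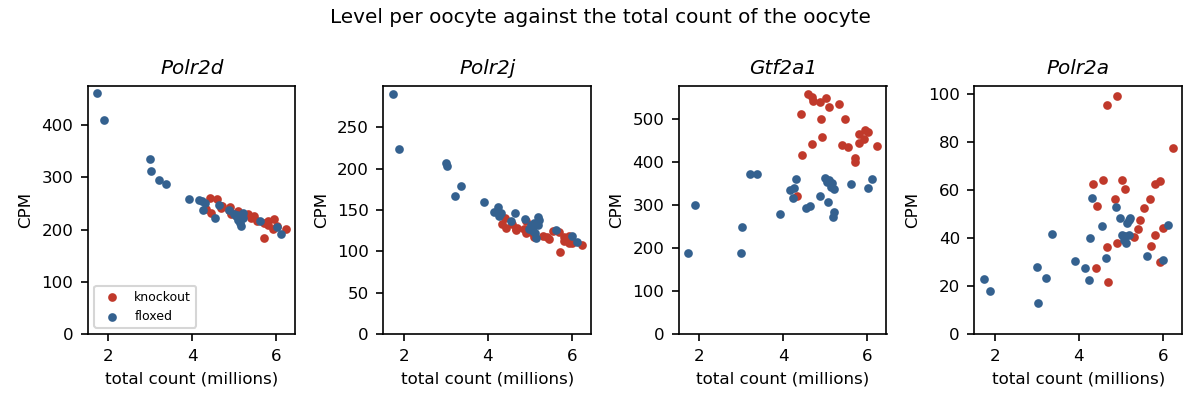
CPM per oocyte (linear axis from 0) against the oocyte's total count for Polr2d, Polr2j, Gtf2a1 and Polr2a, with 24 knockout and 26 floxed oocytes as points. Polr2d and Polr2j fall with the total in both genotypes, which overlap. For Gtf2a1, 23 of 24 knockout oocytes stand above every floxed oocyte.

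Genes outside the set that act beside it included larger fold changes. The counts called in each list below stand beside 27.6% of all tested genes, 14.4% higher and 13.2% lower. Among 31 tested elongation factors, 5 were higher and 4 lower, with a median log2 fold change of 0.04. Tceb3, the elongin subunit that speeds elongation, averaged 147 ± 12.3 CPM in knockout mice and 40.9 ± 13.7 CPM in floxed mice, 3.52-fold higher (adjusted p = 7.60e-04, edgeR). Tcea2, a TFIIS that rescues stalled polymerase, averaged 1.04 ± 0.55 CPM in knockout mice and 6.19 ± 1.70 CPM in floxed mice, 6.71-fold lower. Ell3 was 1.72-fold and Wdr61, of the PAF complex, 2.10-fold higher. Of 5 P-TEFb regulators none passed the test (median -0.20), and 1 had an unadjusted p under 0.05.

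Of 13 phosphatases and binding proteins of the polymerase tail, 4 were higher and 2 lower (median 0.40). Rprd1b, which binds the phosphorylated tail, averaged 11.1 ± 3.22 CPM in knockout mice and 1.66 ± 0.71 CPM in floxed mice, 6.44-fold higher, and its relative Rprd1a was 1.71-fold higher. The tail phosphatases Ctdsp2 and Ctdp1 were 1.98-fold and 1.76-fold higher. The 2 lower genes, named after their values were seen, were Ctdspl, a relative of Ctdsp2, with 15.8 ± 10.1 CPM in knockout mice and 46.4 ± 8.28 CPM in floxed mice (3.09-fold lower), and Rprd2 (1.62-fold lower). Among 8 assembly and import factors only Gpn3 passed the test, 2.25-fold higher.

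The specific subunits of the other polymerases gave 1 higher (Polr1c, a subunit of both polymerase I and III) and 2 lower (Znrd1 and Polr1e) of 8 in polymerase I, with a median of -0.21. In polymerase III, 2 of 11 were higher (Polr3e and Polr3k) and 1 lower (Polr3a), with a median of 0.28. Among 22 further factors and partners, 5 were higher and 2 lower (median 0.08). Bdp1, a subunit of the polymerase III factor TFIIIB, averaged 184 ± 14.9 CPM in knockout mice and 67.1 ± 7.99 CPM in floxed mice, 2.68-fold higher. Gtf3c4 of TFIIIC averaged 33.7 CPM in knockout mice and 6.27 CPM in floxed mice, 5.25-fold higher. Gtf2i averaged 11.2 CPM in knockout mice and 1.92 CPM in floxed mice, 5.73-fold higher. The repair factor Xpc was 1.74-fold higher. The 2 lower genes, also named after their values were seen, were Gtf2ird1, a relative of Gtf2i (1.90-fold lower), and the repair factor Uvssa (1.43-fold lower). Gtf2a1l, the germ cell paralogue of Gtf2a1, was named after its values were seen: it had 208 to 222 CPM in knockout mice and 139 to 163 CPM in floxed mice, 1.36-fold higher (adjusted p = 0.0033, edgeR).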

How the data were processed

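RNA of single oocytes was amplified as whole cDNA with the SMARTer Ultra Low Input kit version 3, per the labels' protocols, a kit without molecular identifiers or strand information. The authors deposited 1 table of read counts per gene (16614 genes, 50 oocytes), not normalized; STAR and mm10 are named in the submitters' processing notes. The sources used here do not name the counter or say how reads with several matches were treated.

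Counts were summed per mouse (4 knockout, 4 floxed). Genes were filtered (filterByExpr, minimum count 10) and tested with edgeR 4.0.16 in R 4.3.3 (TMM, robust quasi-likelihood, Benjamini-Hochberg over 15029 genes, threshold 0.05). A standard error is the log2 fold change over the square root of F. CPM are shares of a mouse's or oocyte's total count, so they are relative levels. Alternatives used DESeq2 1.42.0 and limma 3.58.1; those on depth were chosen after seeing the data. Lengths, exons and 3′ untranslated regions come from GENCODE M21, matched by RefSeq accession (16350 rows) or symbol (186), with 78 not matched.

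The members and the related lists were chosen with earlier results of these data known. Every member is accounted for, called members and the 6 with the highest mean CPM get all 8 values, the extremes of each role are named, and so are up to 4 called genes of each related list. The test was checked on simulated data. Nothing says how mice were bred or processed, so p-values rest on the spread between these mice.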

Additional observations from a re-analysis of the deposited data

Results flagged for a closer look

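Of 74 groups of 4 mice (37 genes in each genotype), 4 had a mouse far from the other 3 by Dixon's ratio at the 95% level, a count that chance gives in about 1 of 20 groups. Gtf2a1 was at 319 CPM in knockout mouse 1, against 469 to 494 CPM in the other knockout mice. Mnat1 was at 86.8 CPM in knockout mouse 1, against 59.3 to 62.9 CPM in the other knockout mice. Gtf2f1 was at 151 CPM in knockout mouse 2, against 170.5 to 174.0 CPM in the other knockout mice. Cdk9 was at 29.5 CPM in floxed mouse 1, against 7.76 to 9.49 CPM in the other floxed mice. Knockout mouse 1 is a single oocyte with 4332108 counts, and floxed mouse 1 is a sum of 5 oocytes.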

How the results depend on the processing

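The counts of called members moved with the mice and the depth. Higher members, 2 with all mice, numbered 4 without mouse 1 of both genotypes (Polr2m, Gtf2a1, Nelfb, Cdk9), also when oocytes under 2500000 counts were left out, 1 with oocytes of 4300000 counts or more, and 0 to 3 with 1 mouse left out. Lower members, 1 with all mice, numbered 8 without mouse 1 of both genotypes, 7 when oocytes under 2500000 counts were also left out, 6 with DESeq2, 2 with depth as a covariate, 0 with limma at equal weight per oocyte, 0 with oocytes of 4300000 counts or more, and 0 to 7 with 1 mouse left out. The higher and lower counts were 2 and 7 without knockout mouse 1, 1 and 0 without knockout mouse 2, 0 and 1 without knockout mouse 3, 3 and 3 without floxed mouse 1, and 1 and 0 without floxed mouse 2 or floxed mouse 4; without knockout mouse 4 or floxed mouse 3 they were 1 and 1. Over all genes, 2164 were higher and 1984 lower; without mouse 1 of both genotypes 3549 were lower, and with the oocytes under 2500000 counts also left out 3253 were higher and 3623 lower. With 1 mouse left out, 1359 to 2538 were higher and 1219 to 2822 lower. In either direction, DESeq2 called 24.3% of members and 34.2% of genes, and the fit with depth as a covariate 10.8% and 27.2%. Without knockout mouse 1 these were 24.3% and 34.7%. Lower calls alone were 18.9% of members and 18.3% of genes without knockout mouse 1. With DESeq2 they were 16.2% of members and 2741 of 16165 genes. Limma at equal weight per oocyte called 2 members and 4364 of 15029 genes in either direction.

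Deviations of same-numbered mice correlated for 3 of the 4 numbers (r of 0.32, -0.0038, 0.25 and 0.18 for mice 1 to 4). Some mice of unlike number correlated to a like degree, with r of 0.19 for knockout mouse 3 with floxed mouse 4. It was 0.17 for knockout mouse 4 with floxed mouse 3, and -0.29 for knockout mouse 3 with floxed mouse 1. As 1 same-numbered pair did not correlate, and the labels name no shared litter or batch, the numbers were not taken as pairs. A replicate block of mouse number called 6 members higher and 7 lower, 35.1% of members, and 2876 and 2947 genes, 38.7% of genes.

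Some log2 fold changes changed sign, the farthest to 0.15 for Gtf2e1. With oocytes of 4300000 counts or more these were Polr2d 0.030, Polr2i 0.033, Gtf2f1 0.025 and Nelfe 0.062. Without mouse 1 of both genotypes Gtf2b was -0.046 and Gtf2e2 -0.034, and with the shallow oocytes also left out -0.0036 and -0.043. Gtf2e1 was 0.0063 with limma, and Ercc3 -0.016 with depth as a covariate. With 1 mouse left out, values ran from -0.052 to 0.039 for Gtf2b, -0.18 to 0.15 for Gtf2e1, -0.046 to 0.031 for Gtf2e2 and -0.0048 to 0.15 for Ercc3. The causes were not tested.

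Gtf2a1 kept its direction in all 18 alternatives and its call in 10, Nelfb its call in 16 and Supt4a in 12. Zfp36l2 stayed below 0 and uncalled in all of them. Intervals of the fold changes rest on the spread between mouse sums. PCR copies are not independent molecules, and the kit has no molecular identifiers to mark them. Leaving out only the oocytes under 2500000 counts changed no member's direction or call, while keeping those of 4300000 counts or more did, with floxed mice 1 and 2 left with 1 and 2 oocytes; the cause was not tested.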
